A study of Homo sapiens with 40 samples.

Results

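Transcript levels of 9 genes of the NRF2 antioxidant program, NFE2L2, HMOX1, NQO1, GCLC, GCLM, TXNRD1, SRXN1, OSGIN1 and ME1, were followed across 10 conditions of human HEK293A cells, an adherent line derived from embryonic kidney. The 9 genes were chosen by name, as the gene of NRF2 itself and well-known NRF2 targets, with earlier results of these data known. The rule itself uses no measured value. All 9 were among the 28922 genes tested, out of 58395 genes in the count table. Poly(A) RNA was sequenced from 2 genotypes under 5 treatments, with 4 libraries per condition and 40 libraries in all. WT cells were the unmodified line. PARP1-KO cells were 1 clone with a homozygous CRISPR/Cas9 deletion in PARP1, which the labels also call a knockdown, so the effects of the clone and of the lost gene cannot be told apart. Cells of each genotype were left without treatment, or received 0.1% DMSO, topotecan (Tpc, a poison of topoisomerase 1), OL9-119 at 5 µM (an inhibitor of TDP1, the enzyme that removes topoisomerase 1 from DNA), or Tpc with OL9-119, for 5 to 5.5 h. Tpc was given at 100 nM to WT cells and at 50 nM to PARP1-KO cells, so dose and genotype cannot be told apart wherever Tpc-treated cells of both genotypes were compared. Every condition except the untreated one contained 0.1% DMSO.

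NRF2, the product of NFE2L2, is a transcription factor that KEAP1 and the ubiquitin ligase CUL3 hold at a low level in resting cells. Oxidants and electrophiles that modify KEAP1 let NRF2 accumulate, pair with small MAF proteins and bind antioxidant response elements near its target genes, while BACH1 competes for the same elements and is a known repressor of HMOX1. NRF2 is regulated largely at the level of protein stability, so the NFE2L2 transcript is not itself a measure of NRF2 activity. The targets here cover heme breakdown (HMOX1), quinone reduction (NQO1), the committed step of glutathione synthesis (GCLC and GCLM), the thioredoxin and peroxiredoxin cycle (TXNRD1 and SRXN1), NADPH supply (ME1) and a regulator of growth under oxidative stress (OSGIN1).

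The libraries held from 3455043 to 20379777 gene counts (median 10656829). PARP1, the targeted gene, had a level of 737 to 887 CPM (counts scaled to TMM-normalised library size) in WT libraries and of 30.4 to 46.6 CPM in PARP1-KO libraries, which sets the genotypes apart as labelled. The 8 listed markers of the HEK293 line all exceeded a mean of 1 CPM, as did 4 of 5 fibroblast, 2 of 4 endothelial, 1 of 5 blood and 0 of 4 hepatocyte markers. WT libraries also differed in complexity. When each library was thinned to the smallest total, WT libraries showed 15510 to 20619 genes and PARP1-KO libraries 17970 to 21571. A limit chosen after the data were seen set apart the 11 libraries with the fewest genes, 9 of WT and 2 of PARP1-KO cells. They were untreated replicates 1 and 3, DMSO replicates 1, 2 and 3, Tpc replicate 2, OL9-119 replicate 2 and combination replicates 1 and 2 of WT cells, and untreated replicate 1 and Tpc replicate 1 of PARP1-KO cells. Values without these 11 low-complexity libraries are given below where they alter the call of a member or of a listed gene among the largest changes of a comparison. Other calls of named genes were not checked in this way, among them those of CUL3, TXN, FTH1, IDH2 and SOD1. The PRDX4 call between untreated genotypes was not checked either.

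The 9 transcripts covered a wide range of levels. Per kilobase of the canonical transcript, mean levels over the 40 libraries were 69.8 CPM for TXNRD1, 39.4 for NFE2L2, 23.9 for HMOX1, 22.7 for GCLC, 15.6 for ME1, 12.5 for GCLM, 2.79 for NQO1, 0.850 for OSGIN1 and 0.284 for SRXN1. HMOX1 had 9.10 CPM per kilobase in WT and 38.6 in PARP1-KO libraries. The order depends on the length used. Per kilobase of all annotated exons NFE2L2 had 6.44 CPM, below HMOX1 (16.1), ME1 (15.6), GCLM (11.2) and GCLC (9.96). SRXN1 had 0 to 27 counts per library and OSGIN1 had 0 to 40, so for these a change of less than several fold was not detectable at this depth. SRXN1 also shares 90.7% of its exon bases with a neighbouring gene model on the same strand that received 0 counts, so its level is uncertain. HNRNPA3, on the opposite strand, covers 23.4% of the NFE2L2 exon bases, and the strand setting of the counting is not given in the sources used here.

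The promoters of the members were searched for the core of the antioxidant response element, TGACNNNGC, on both strands. Promoter windows ran from 250 bases before to 50 bases after each start and came from RefSeq (GRCh38.p14), where 8 of the 9 members had 10 windows. HMOX1 had no entry. The core occurred in 4 of the 10 windows, beside 13.3% of all 35116 windows. It occurred in 3 of the 8 members, GCLM, TXNRD1 and ME1, beside 16.1% of all 27305 gene symbols. The 250 bases before each of these starts are shown 5′ to 3′ on the strand of the gene, with matches in capitals, because these are the members whose window holds the core. A match with TGAC first lies on the strand of the gene, and one that begins with GC is the reverse complement. A match is a run of letters only, and binding was not measured. Sequence outside the windows was not searched, so a member without a match here may hold the core elsewhere.
GCLM, chr1:93909431-93909680, minus strand: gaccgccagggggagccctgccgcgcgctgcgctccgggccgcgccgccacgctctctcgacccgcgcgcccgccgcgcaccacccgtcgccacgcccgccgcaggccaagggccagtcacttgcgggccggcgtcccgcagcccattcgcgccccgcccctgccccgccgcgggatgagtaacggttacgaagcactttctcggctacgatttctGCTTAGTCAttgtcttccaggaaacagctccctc
TXNRD1, first promoter, chr12:104215529-104215778, plus strand: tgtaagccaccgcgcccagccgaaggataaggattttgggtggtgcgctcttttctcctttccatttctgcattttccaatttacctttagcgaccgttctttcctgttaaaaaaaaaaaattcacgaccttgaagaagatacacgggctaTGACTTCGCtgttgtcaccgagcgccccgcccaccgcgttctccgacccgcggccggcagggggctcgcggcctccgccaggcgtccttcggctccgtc
TXNRD1, second promoter, chr12:104286782-104287031, plus strand: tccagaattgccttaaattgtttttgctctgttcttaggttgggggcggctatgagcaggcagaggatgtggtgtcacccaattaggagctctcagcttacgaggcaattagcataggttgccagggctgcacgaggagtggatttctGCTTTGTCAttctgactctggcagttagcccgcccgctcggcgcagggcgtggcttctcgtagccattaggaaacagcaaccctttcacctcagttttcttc
ME1, chr6:83431052-83431301, minus strand: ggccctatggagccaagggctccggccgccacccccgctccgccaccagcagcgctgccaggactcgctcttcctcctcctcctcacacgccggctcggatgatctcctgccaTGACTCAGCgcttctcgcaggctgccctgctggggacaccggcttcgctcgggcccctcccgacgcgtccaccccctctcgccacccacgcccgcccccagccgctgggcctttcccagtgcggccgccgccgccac

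The match in GCLM began 34 bases before the start. TXNRD1 has separate starts with a match each, the first of them 99 bases before its start, and one more that runs across the first start and is left in lower case. ME1 had a match 137 bases before the start and another after it.

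HMOX1, at chr22:35380361-35394214 on the plus strand (ENSG00000100292, hg38), showed the widest separation between the genotypes. In untreated PARP1-KO cells the 4 libraries gave 72.3, 60.0, 73.1 and 75.5 CPM, and in untreated WT cells 15.3, 9.09, 46.2 and 10.99 CPM. Every PARP1-KO library lay above every WT library, and the WT value of 46.2, in replicate 3, stood far above the other WT values. In DMSO-treated cells the values were 90.0, 69.3, 31.3 and 77.0 CPM in PARP1-KO and 12.4, 18.7, 10.1 and 9.71 CPM in WT. Here PARP1-KO replicate 3, at 31.3 CPM, was the low one and still exceeded all 4 WT libraries.

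With Tpc, HMOX1 stood at 54.5, 63.9, 42.4 and 52.1 CPM in PARP1-KO and at 12.4, 8.44, 10.4 and 9.67 CPM in WT cells. With OL9-119 it stood at 56.6, 64.7, 58.1 and 48.0 CPM in PARP1-KO and at 17.0, 14.3, 16.3 and 17.7 CPM in WT cells. With both agents it stood at 41.4, 58.9, 60.3 and 51.6 CPM in PARP1-KO and at 13.2, 14.1, 10.7 and 6.04 CPM in WT cells. The genotypes did not overlap under any of the 5 treatments. Over all treatments 17 of 20 PARP1-KO libraries exceeded the highest WT library, and the next highest WT library had 18.7 CPM. The mean of the 20 PARP1-KO libraries was 4.25 times that of the 20 WT libraries.

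**Figure D1:**
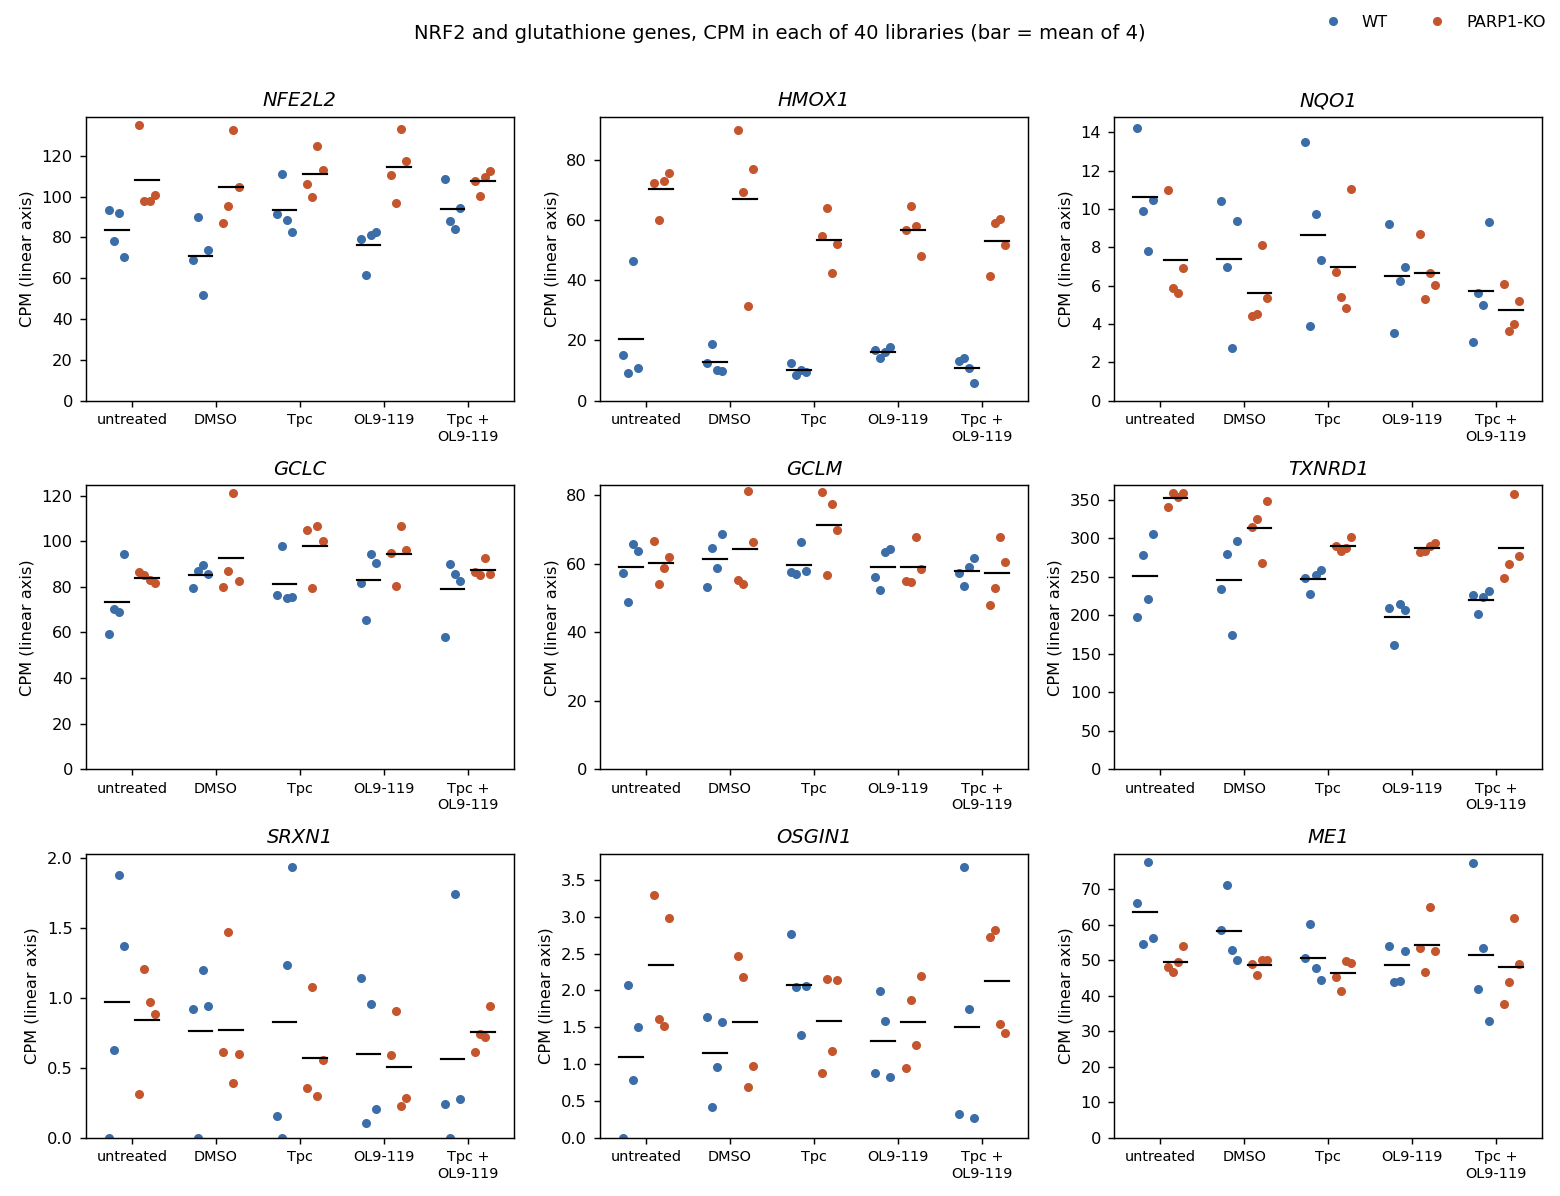
TMM-normalised CPM (y axis, linear) of each of the 9 members in every library, by treatment (x axis), with WT libraries in blue, PARP1-KO libraries in orange and a bar at the mean of the 4 libraries of a condition. HMOX1 is the one panel in which all 4 PARP1-KO points lie above all 4 WT points under each treatment, and WT untreated replicate 3, at 46.2 CPM, is the single WT point near the PARP1-KO range.

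HMOX1 was called higher in PARP1-KO cells under all 5 treatments by edgeR's quasi-likelihood test (Benjamini-Hochberg adjusted p below 0.01 over all genes tested, n = 4 against 4; a gene past this threshold is referred to as called). The log2 fold change was 1.78 (SE 0.27, adjusted p = 1.08e-06) in untreated cells, a 3.44-fold difference with a 95% confidence interval of 2.35 to 5.03. It was 2.39 (SE 0.28, adjusted p = 1.95e-09) in DMSO-treated cells, 2.38 (SE 0.29, adjusted p = 5.54e-09) after Tpc, 1.80 (SE 0.28, adjusted p = 1.34e-06) after OL9-119 and 2.22 (SE 0.29, adjusted p = 4.27e-08) after the combination. The corresponding folds were 5.23, 5.19, 3.48 and 4.65. Without WT untreated replicate 3 the untreated difference became 2.57, and without the 11 low-complexity libraries it became 2.78. Genotype accounted for 84.0% of the variance of log2 CPM of HMOX1 over the 40 libraries, treatment within genotype for 3.96% and replicates for 12.1%.

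TXNRD1, at chr12:104215779-104350307 on the plus strand (ENSG00000198431), encodes the cytosolic thioredoxin reductase. In untreated cells it stood at 340, 359, 353 and 358 CPM in PARP1-KO and at 197, 278, 221 and 306 CPM in WT libraries, without overlap. With OL9-119 it stood at 282, 284, 290 and 294 CPM in PARP1-KO and at 209, 162, 214 and 206 CPM in WT libraries, also without overlap. TXNRD1 was called higher in PARP1-KO cells in both conditions, by 0.50 (SE 0.12, adjusted p = 0.00218) and 0.54 (SE 0.12, adjusted p = 0.000986) on the log2 scale. These are folds of 1.41 and 1.45. RNA was taken from whole cultures, so fewer cells that express a gene and less RNA per cell cannot be told apart.

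In the other 3 conditions TXNRD1 was not called. With DMSO the values were 314, 325, 268 and 348 CPM in PARP1-KO and 234, 280, 175 and 297 CPM in WT cells, and the genotypes overlapped (log2 fold change 0.35, adjusted p = 0.0361). With Tpc they were 290, 283, 287 and 302 CPM against 248, 227, 252 and 259 CPM (0.24, adjusted p = 0.211), and with both agents 248, 266, 357 and 277 CPM against 226, 201, 223 and 232 CPM (0.38, adjusted p = 0.0310). In the last 2 conditions the groups did not overlap although the difference missed the threshold. Among WT untreated libraries the low-complexity replicates 1 and 3 had the lower TXNRD1 values, and among WT DMSO libraries the one library over the complexity limit had the highest. Without the low-complexity libraries the untreated difference was 0.27 (adjusted p = 0.0549) and the DMSO difference 0.07 (adjusted p = 0.791), while the OL9-119 difference was 0.43 (adjusted p = 5.90e-05). Without WT OL9-119 replicate 2 alone, it was 0.45 (adjusted p = 0.0122). The call in untreated cells was also lost without WT replicate 1 (0.40, adjusted p = 0.0283) or replicate 3 (0.44, adjusted p = 0.0158).

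NFE2L2, at chr2:177218667-177392756 on the minus strand (ENSG00000116044), was called higher in PARP1-KO cells with DMSO and with OL9-119. With DMSO it stood at 87.2, 95.4, 132 and 105 CPM in PARP1-KO and at 68.9, 89.8, 51.7 and 74.1 CPM in WT cells, and the ranges overlapped by 1 library on each side. The log2 fold change was 0.56 (SE 0.14, adjusted p = 0.00249), a fold of 1.47. With OL9-119 it stood at 110, 96.9, 133 and 118 CPM in PARP1-KO and at 79.3, 61.7, 81.2 and 82.8 CPM in WT cells, without overlap. The log2 fold change there was 0.59 (SE 0.14, adjusted p = 0.00184).

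In untreated cells the 4 PARP1-KO values of NFE2L2, 134.9, 97.96, 98.02 and 100.96 CPM, all exceeded the WT values of 93.2, 78.3, 91.9 and 70.4 CPM, but the difference of 0.37 missed the threshold (adjusted p = 0.0617). The groups overlapped with Tpc, at 106, 100.0, 124.96 and 113 CPM against 91.6, 111, 88.3 and 82.7 CPM (0.25, adjusted p = 0.260). They also overlapped with both agents, at 108, 100.3, 110 and 113 CPM against 109, 87.9, 83.9 and 94.5 CPM (0.20, adjusted p = 0.378). The NFE2L2 call with DMSO was lost without the low-complexity libraries (0.49, adjusted p = 0.0294), without PARP1-KO DMSO replicate 3 (0.43, adjusted p = 0.0352) or without WT DMSO replicate 3 (0.44, adjusted p = 0.0252). The OL9-119 call was lost without WT replicate 2 (0.50, adjusted p = 0.0180) or PARP1-KO replicate 3 (0.52, adjusted p = 0.0143), as well as with length and GC offsets (0.41, adjusted p = 0.0146), and stood at 0.47 (adjusted p = 0.000195) without the low-complexity libraries. With the same offsets the DMSO difference was 0.38 (adjusted p = 0.0192).

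**Figure D2:**
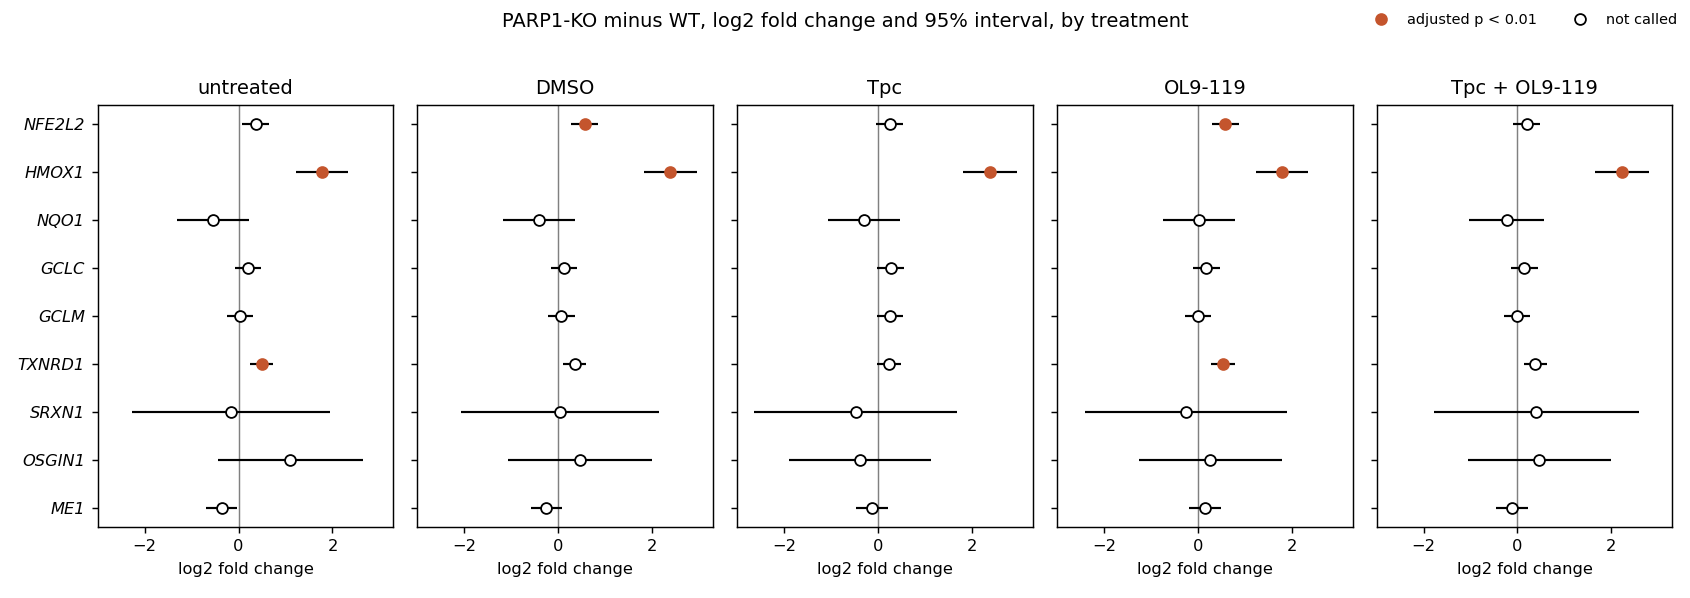
Log2 fold change of PARP1-KO over WT (x axis) for each member under each of the 5 treatments, with 95% confidence intervals, filled symbols marking adjusted p below 0.01. HMOX1 lies between 1.78 and 2.39 in all 5 comparisons, TXNRD1 between 0.24 and 0.54 and NFE2L2 between 0.20 and 0.59, and the intervals of SRXN1 and OSGIN1 are the widest and include 0 in each comparison.

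Neither glutathione synthesis gene was called between the genotypes. GCLC, the catalytic subunit of glutamate-cysteine ligase (chr6:53497341-53616970, minus strand, ENSG00000001084), ranged from 58.2 to 97.8 CPM in WT and from 79.3 to 121.3 CPM in PARP1-KO libraries, and its 5 log2 differences of 0.12 to 0.27 were all above 0 and all uncalled (lowest adjusted p = 0.220). GCLM, the modifier subunit (chr1:93885199-93909456, minus strand, ENSG00000023909), ranged from 48.8 to 68.7 CPM in WT and from 47.8 to 81.1 CPM in PARP1-KO libraries, with differences of −0.01 to 0.25. The highest upper bounds of their 95% intervals were 0.55 and 0.53 on the log2 scale, folds of 1.46 and 1.45, both in Tpc-treated cells. Mean GCLM levels lay between 57.8 and 61.3 CPM in all 5 WT conditions.

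NQO1, the quinone reductase often used as a readout of NRF2 (chr16:69706996-69726668, minus strand, ENSG00000181019), was low in both genotypes, at 2.76 to 14.2 CPM in WT and 3.64 to 11.05 CPM in PARP1-KO libraries. Its differences ran from −0.55 to 0.02, none of them called (lowest adjusted p = 0.332), and its mean was highest in untreated WT cells (10.6 ± 2.68 CPM, SD, n = 4). ME1, the cytosolic malic enzyme (chr6:83210402-83431051, minus strand, ENSG00000065833), stood at 63.6 ± 10.7 CPM in untreated WT and 49.5 ± 3.20 CPM in untreated PARP1-KO cells. These groups did not overlap, and the difference of −0.36 (SE 0.17) was not called (adjusted p = 0.124). With length and GC offsets (corrections per library for transcript length and base composition) it was called lower (−0.52, adjusted p = 0.00667), and no member was called lower under any other alternative. Its other 4 differences ran from −0.26 to 0.16.

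SRXN1, which encodes sulfiredoxin and reactivates oxidised peroxiredoxins (chr20:646615-653200, minus strand, ENSG00000271303), never exceeded 1.93 CPM, and 4 WT libraries had no count of it. OSGIN1 (chr16:83931311-83966332, plus strand, ENSG00000140961) reached at most 3.67 CPM. Their differences between genotypes ran from −0.48 to 0.40 and from −0.38 to 1.10, with standard errors of 1.05 to 1.09 and 0.75 to 0.77, and none was called.

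Counted over the 9 members, PARP1-KO cells had 2 called higher in untreated cells, 2 under DMSO, 1 after Tpc, 3 after OL9-119 and 1 after the combination, and none called lower. Of all genes tested, 11.7%, 12.4%, 8.52%, 9.77% and 7.27% were called in the same 5 comparisons. Those called higher in PARP1-KO cells made up 5.97%, 6.67%, 4.17%, 4.94% and 3.56%. The median difference of the members was 0.20, 0.12, 0.24, 0.19 and 0.20, beside 0.17, 0.19, 0.07, 0.04 and 0.14 for all genes. For the 13989 genes with a mean of at least 20 counts this median was 0.01, 0.02, 0.01, −0.01 and 0.02. Of these better-counted genes 11.8%, 12.8%, 8.24%, 9.89% and 6.91% were called higher. At an unadjusted p below 0.05 the members numbered 4, 3, 1, 3 and 2. DESeq2 called the same numbers, with HMOX1 in each comparison, TXNRD1 in untreated and OL9-119-treated cells, and NFE2L2 with DMSO and OL9-119. Of the 3 members whose promoter window held the response element core, TXNRD1 was called in 2 comparisons while GCLM and ME1 were called in none. HMOX1 had no window, and the other members were searched only within theirs, so these calls do not compare members with and without the element.

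None of the 9 members was called for Tpc, OL9-119 or their combination in either genotype. The 3 comparisons in a genotype share its DMSO libraries. In WT cells NFE2L2 stood at 71.1 ± 15.7 CPM with DMSO, 93.4 ± 12.3 with Tpc and 93.8 ± 10.9 with both agents (SD, n = 4), but the groups overlapped and the differences of 0.39 and 0.40 missed the threshold after adjustment (adjusted p = 0.151 and 0.0745). TXNRD1 in WT cells stood at 246 ± 54.5 CPM with DMSO and 198 ± 24.4 with OL9-119, a difference of −0.31 (adjusted p = 0.176). HMOX1 in WT cells stood at 12.7 ± 4.15 CPM under DMSO, 10.2 ± 1.66 after Tpc, 16.3 ± 1.45 after OL9-119 and 11.03 ± 3.63 CPM after the combination, and no difference from DMSO was called. In PARP1-KO cells it stood at 66.9 ± 25.2, 53.2 ± 8.83, 56.8 ± 6.84 and 53.0 ± 8.65 CPM under the same 4 treatments.

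**Figure D3:**
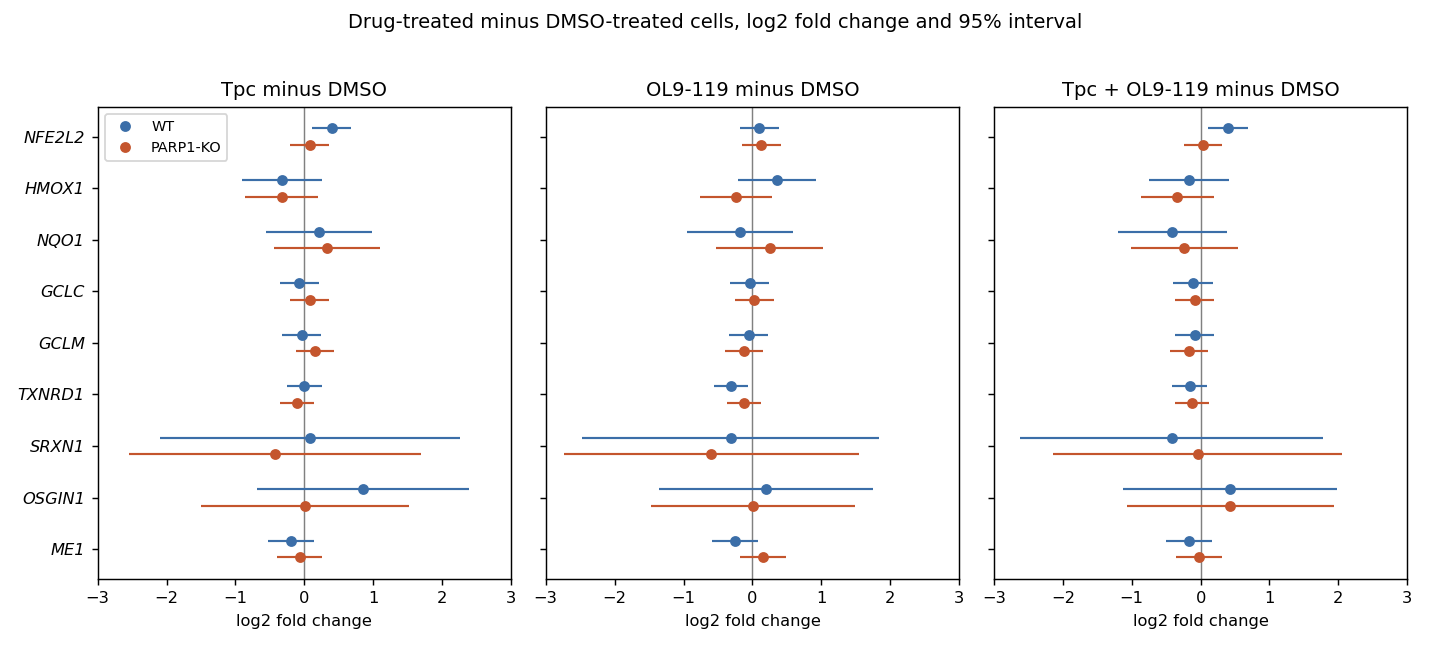
Log2 fold change of Tpc, OL9-119 and Tpc with OL9-119 over DMSO (x axis) for each member in WT cells and in PARP1-KO cells, with 95% confidence intervals. No member reached adjusted p below 0.01, and of the members with at least 22 counts in every library, the point estimates lie between −0.41 and 0.40.

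The test by edgeR called 0 of 9 members in each of the 12 comparisons of treatments within a genotype. At an unadjusted p below 0.05 it gave 1 member each for DMSO over untreated (HMOX1, −0.67, adjusted p = 0.378), Tpc over DMSO (NFE2L2), OL9-119 over DMSO (TXNRD1), the combination over DMSO (NFE2L2) and the combination over OL9-119 (NFE2L2, 0.30, adjusted p = 0.383) in WT cells, and 1 for the combination over Tpc in PARP1-KO cells (GCLM, −0.31, adjusted p = 1). The other 6 comparisons gave none. DESeq2 also called 0 of 9 in each. Of all genes tested, edgeR called 0% for DMSO over untreated, 0.985% for Tpc, 1.15% for OL9-119 and 3.38% for the combination over DMSO in WT cells, and 0.18% and 0.408% for the combination over Tpc and over OL9-119. In PARP1-KO cells 0.00346% were called for OL9-119 over DMSO and 0% in the other 5 comparisons, so in those cells hardly any gene was called with all libraries in the fit. Without WT untreated replicate 3, HMOX1 with DMSO over untreated stood at 0.11 in place of −0.67, uncalled in both.

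The difference between the genotypes in each drug response was tested directly. No member passed for Tpc, OL9-119 or both, and none had an unadjusted p below 0.05 by edgeR or by DESeq2, while 0.173%, 0.1% and 0.432% of all genes were called. For HMOX1 the difference of responses was −0.01, −0.59 (95% interval −1.36 to 0.18) and −0.17, and for NFE2L2 it was −0.31, 0.02 and −0.36 (95% interval −0.77 to 0.04). For TXNRD1 it was −0.11, 0.19 and 0.03. When untreated cells replaced DMSO-treated cells as comparator, again no member was called, and the lowest adjusted p was that of HMOX1 with Tpc in WT cells (−0.99, adjusted p = 0.0489). The untreated WT mean there was raised by replicate 3, at 46.2 CPM. The median of HMOX1 was 13.1 CPM in untreated WT cells and 10.0 CPM in WT cells with Tpc.

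Ordered by mean level over the 10 conditions, HMOX1, TXNRD1 and NFE2L2 each had all 5 PARP1-KO conditions above all 5 WT conditions. For HMOX1 the order within PARP1-KO cells was untreated, DMSO, OL9-119, Tpc and the combination, and within WT cells untreated, OL9-119, DMSO, the combination and Tpc. Neighbours in this order overlapped in their libraries in all 9 pairs, for HMOX1 and for each other member, so only steps across several places separate conditions. Genotype accounted for 51.1% of the variance of TXNRD1, 45.9% of that of NFE2L2 and 19.7% of that of GCLC, and for 1.99% to 8.94% in the other 5 members. Replicates took the larger share in those, from 70.9% for NQO1 to 92.3% for SRXN1.

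A further 107 tested genes from lists of NRF2 regulators and of glutathione, thioredoxin, NADPH, quinone, heme, efflux and superoxide metabolism gave the setting for the 9 members. More of them were lower than higher in PARP1-KO cells in each comparison. With 10 higher and 29 lower in untreated cells, 9 and 29 under DMSO, 5 and 19 after Tpc, 6 and 23 after OL9-119, and 7 and 10 after the combination, the share called lower was 27.1%, 27.1%, 17.8%, 21.5% and 9.35%. Of all genes tested, 5.74%, 5.75%, 4.34%, 4.83% and 3.71% were called lower. Among the 13989 genes with a mean of at least 20 counts, where calls are easier to make, the share called lower was 11.6%, 11.7%, 8.79%, 9.87% and 7.48%, beside 30.2%, 30.2%, 19.8%, 24.0% and 10.4% of the 96 listed genes that met the same limit. The share of listed genes called higher was 9.35%, 8.41%, 4.67%, 5.61% and 6.54%, beside 5.97%, 6.67%, 4.17%, 4.94% and 3.56% of all genes. Within the limit of 20 counts it was 10.4%, 9.38%, 5.21%, 6.25% and 7.29%, beside 11.8%, 12.8%, 8.24%, 9.89% and 6.91%. The median log2 difference of the listed genes was −0.35, −0.32, −0.20, −0.27 and −0.17. Without the low-complexity libraries the listed genes called lower numbered 26, 13, 26, 33 and 19 and those called higher 13, 10, 10, 12 and 10. Over all genes those called lower went from 1659, 1662, 1256, 1398 and 1072 to 2037, 1276, 2319, 2822 and 1726 in the same fits, and those called higher from 1727, 1930, 1207, 1429 and 1031 to 2009, 1244, 2251, 2792 and 1613. The part of library complexity in these counts was not tested.

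**Figure D4:**
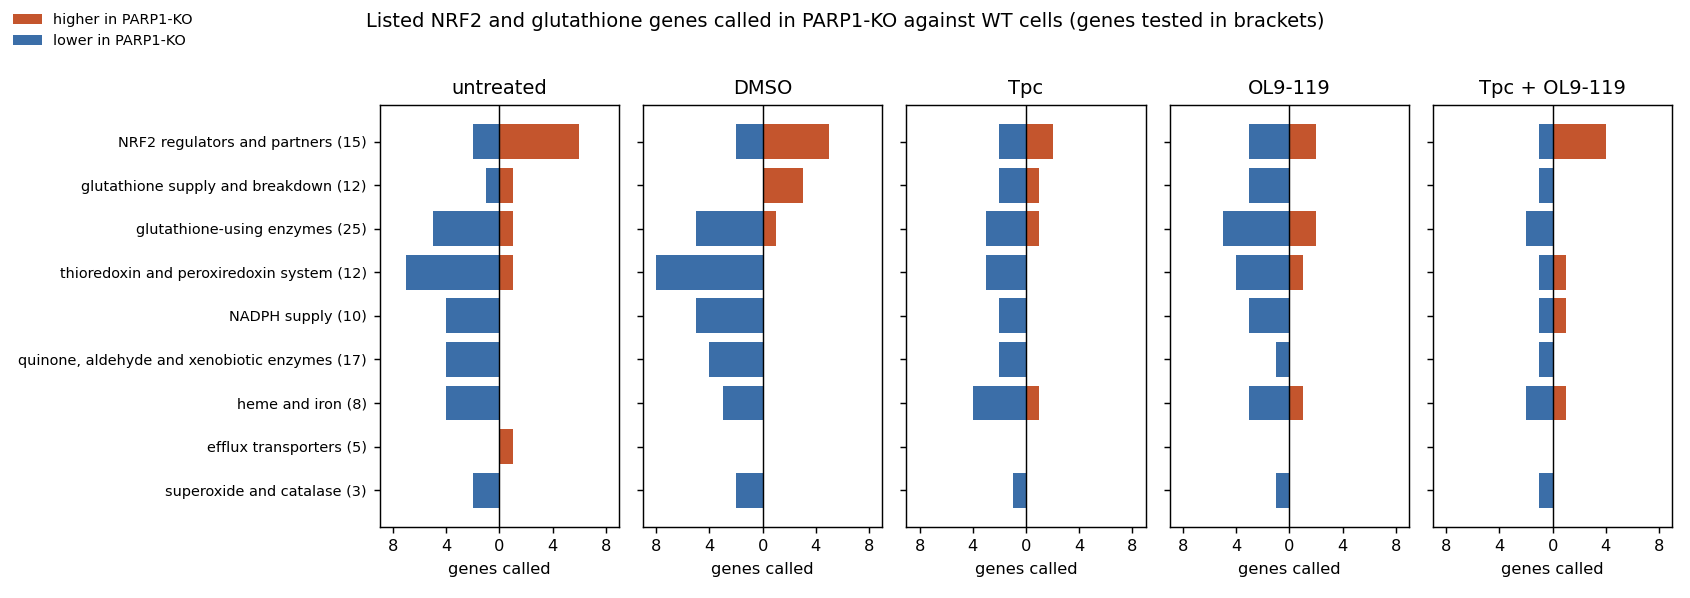
Number of listed genes (x axis) called higher and lower in PARP1-KO than in WT cells, for each gene list and treatment, with the genes tested in each list in brackets. The regulators hold most of the higher calls in untreated cells, 6 of 10, and the thioredoxin and peroxiredoxin list the most lower calls there, 7 of 29.

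Of 15 NRF2 regulators and partners, 6 were higher and 2 lower in untreated PARP1-KO cells, 5 and 2 under DMSO, 2 and 2 after Tpc, 2 and 3 after OL9-119, and 4 and 1 after the combination. No test compared the lists with each other. MAFF, a small MAF protein that pairs with NRF2 or BACH1, stood at 39.2 ± 5.94 CPM in PARP1-KO and 7.92 ± 1.69 CPM in WT cells (log2 fold change 2.30, SE 0.22, adjusted p = 2.18e-12) and was called higher under each of the 5 treatments, by 1.10 to 2.77. BACH1 was higher by 1.10 (SE 0.22, adjusted p = 0.000155), at 91.4 ± 6.01 against 42.9 ± 18.9 CPM, or by 0.66 without the low-complexity libraries, and its part in the level of HMOX1 was not tested. Also higher was CUL3, the scaffold of the ligase that degrades NRF2, by 0.74 (adjusted p = 2.85e-05). KEAP1, which was chosen after its values were seen, stood at −0.04 (adjusted p = 0.931) in untreated cells and was called in no comparison of the genotypes. ABCC2, an exporter of glutathione conjugates, stood at 5.55 ± 0.245 CPM against 1.10 ± 0.873 CPM (2.34, SE 0.56, adjusted p = 0.00142).

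Of 12 genes of the thioredoxin and peroxiredoxin system, 7 were lower and 1 was higher in untreated PARP1-KO cells, among the lower ones TXN (−0.81, adjusted p = 4.29e-06), the thioredoxin that TXNRD1 reduces, and the peroxiredoxins PRDX1 (−0.55, adjusted p = 0.000373) and PRDX4 (−1.14, adjusted p = 2.28e-10). TXNRD1 and its substrate TXN were called in opposite directions with all libraries in the fit. Without the low-complexity libraries TXNRD1 was not called in untreated cells (0.27, adjusted p = 0.0549 by edgeR). For TXN that fit was not checked. Of 25 glutathione-using enzymes, 5 were lower and 1 higher. GSTP1, a glutathione transferase, fell from 851 ± 208 CPM in WT to 330.3 ± 17.6 CPM in PARP1-KO cells (−1.37, SE 0.15, adjusted p = 9.98e-11), and GPX3, a secreted glutathione peroxidase, from 27.0 ± 3.24 to 9.53 ± 1.44 CPM (−1.49, SE 0.25, adjusted p = 6.07e-06). GLRX2, a mitochondrial glutaredoxin, was higher, at 38.7 ± 2.43 against 18.4 ± 5.66 CPM (1.07, adjusted p = 0.000109).

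In the heme and iron list, 4 of 8 genes were lower and none was higher in untreated PARP1-KO cells, while HMOX1 was higher. BLVRA, the reductase that acts on biliverdin, the product of HMOX1, stood at 24.8 ± 6.80 CPM in PARP1-KO and 67.9 ± 14.3 CPM in WT cells (−1.44, SE 0.19, adjusted p = 2.48e-08). FTH1, the heavy chain of ferritin, was lower by a log2 fold change of −0.60 (adjusted p = 0.000835). NADPH supply had 4 of 10 genes lower, IDH2 (33.4 ± 6.27 against 67.2 ± 8.76 CPM, adjusted p = 5.50e-05) among them, and the quinone, aldehyde and xenobiotic list 4 of 17, none of them higher. SOD1, the cytosolic superoxide dismutase, was lower (−0.65, adjusted p = 0.000339), as was CAT, the catalase gene. Of 12 genes of glutathione supply and breakdown, 1 was higher, the cystine transporter SLC7A11 (1.08, adjusted p = 0.00012), and 1 was lower, GGT1 (−0.77, adjusted p = 0.00131).

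These differences between the genotypes changed with treatment for part of the lists. With DMSO, CHAC1 was the listed gene furthest above WT (3.29), followed by MAFF (2.77) and GLRX2 (1.74), and GPX3 (−1.63), BLVRA (−1.41) and GSTP1 (−1.40) were furthest below. Without the low-complexity libraries BLVRA stood at −0.90 and GSTP1 at −0.89. With Tpc the same places were held by CTH (1.28), MAFF (1.10), GLRX2 (0.85), GPX3 (−1.49), GGT1 (−1.09) and GSTP1 (−1.07). With OL9-119 they were held by MAFF (2.45), TXNIP (1.29), GLRX2 (0.92), GSTM4 (−1.45), GPX3 (−1.40) and SLC7A11 (−1.23). With both agents they were held by TXNIP (1.24), MAFF (1.13), BACH2 (0.91), SLC7A11 (−1.55), NFE2L3 (−0.91) and CAT (−0.90). SLC7A11 stood above WT in untreated PARP1-KO cells and below WT with OL9-119, alone or with Tpc. BACH2 with both agents was not called without the low-complexity libraries (0.53, adjusted p = 0.0264). The CHAC1 difference with DMSO rests on a low WT level, 1.36 ± 1.15 CPM against 14.2 ± 7.77 CPM in PARP1-KO cells. CHAC1 was not called between the genotypes in untreated cells, and its drug responses below share this DMSO baseline.

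Although no member was called, listed genes of cystine and glutathione handling changed strongly in WT cells with OL9-119. CHAC1, which breaks down glutathione, rose from 1.36 ± 1.15 CPM with DMSO to 45.6 ± 6.44 CPM with OL9-119 (4.98, SE 0.44, adjusted p = 1.12e-12). SLC7A11 rose from 12.5 ± 4.25 to 84.3 ± 21.5 CPM (2.76, SE 0.22, adjusted p = 2.98e-14), and CTH, which makes cysteine from cystathionine, from 5.81 ± 2.37 to 24.4 ± 4.29 CPM (2.07, SE 0.28, adjusted p = 4.78e-07). GCLC and GCLM, which use the cysteine that these genes supply, stayed at 82.9 ± 12.9 and 59.0 ± 5.72 CPM, beside 85.3 ± 4.32 and 61.3 ± 6.83 CPM with DMSO. TXNIP, an inhibitor of thioredoxin, fell from 113 ± 10.2 to 56.9 ± 5.72 CPM (−0.99, SE 0.14, adjusted p = 1.08e-06), and PRDX1 from 537 ± 78.7 to 280 ± 31.0 CPM (−0.94, SE 0.12, adjusted p = 1.3e-07). In all, 5 listed genes were higher and 5 lower, and without the low-complexity libraries 5 and 2, PRDX4 (−0.70) being among those lost (−0.37, adjusted p = 0.209). Over all genes 141 were higher and 193 lower, and 71 and 39 without those libraries.

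Tpc alone gave another set in WT cells. MAFF rose from 5.52 ± 3.41 to 21.9 ± 2.56 CPM (1.99, SE 0.23, adjusted p = 3.99e-09), CHAC1 to 7.69 ± 1.82 CPM (2.42, adjusted p = 0.000224) and GLRX2 from 12.5 ± 6.58 to 26.5 ± 1.38 CPM (1.09, adjusted p = 0.0012), while IDH1 fell from 50.8 ± 8.39 to 29.8 ± 3.90 CPM (−0.77, adjusted p = 0.00311). In all, 5 listed genes were called higher and 1 lower, and 2 and 0 without the low-complexity libraries, beside 285 calls over all genes and then 85 higher and 70 lower. In that fit MAFF was still called (2.52, adjusted p = 1.03e-07), while CHAC1 (1.86, adjusted p = 0.123), GLRX2 (0.59, adjusted p = 0.332) and IDH1 (−0.65, adjusted p = 0.0989) were not. In that comparison 1 WT DMSO library was left, and its spread was assumed to equal that of the other groups.

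Both agents together gave 8 higher and 10 lower listed genes in WT cells, beside 532 higher and 446 lower over all genes. Without the low-complexity libraries 1 WT DMSO library is left, so the counts of that fit are not given here. CHAC1 (4.40), SLC7A11 (2.39) and CTH (2.10) were furthest above DMSO, at adjusted p of 2.98e-11, 2.33e-12 and 1.72e-07, and GLRX (−1.04), TXNIP (−0.95) and RBX1 (−0.82) furthest below, of which TXNIP alone was still called without the low-complexity libraries (−1.20, adjusted p = 3.21e-07), GLRX standing at −0.51 (adjusted p = 0.653) and RBX1 at −0.63 (adjusted p = 0.147). Over Tpc alone the combination raised CHAC1 (1.98, adjusted p = 0.00167), CTH (1.54, adjusted p = 0.000532) and SLC7A11 (1.52, adjusted p = 4.5e-06) and lowered TXNIP (−0.90, adjusted p = 4.27e-05). Over OL9-119 alone it raised MAFF (1.48, adjusted p = 1.15e-05), the single listed gene called.

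**Figure D5:**
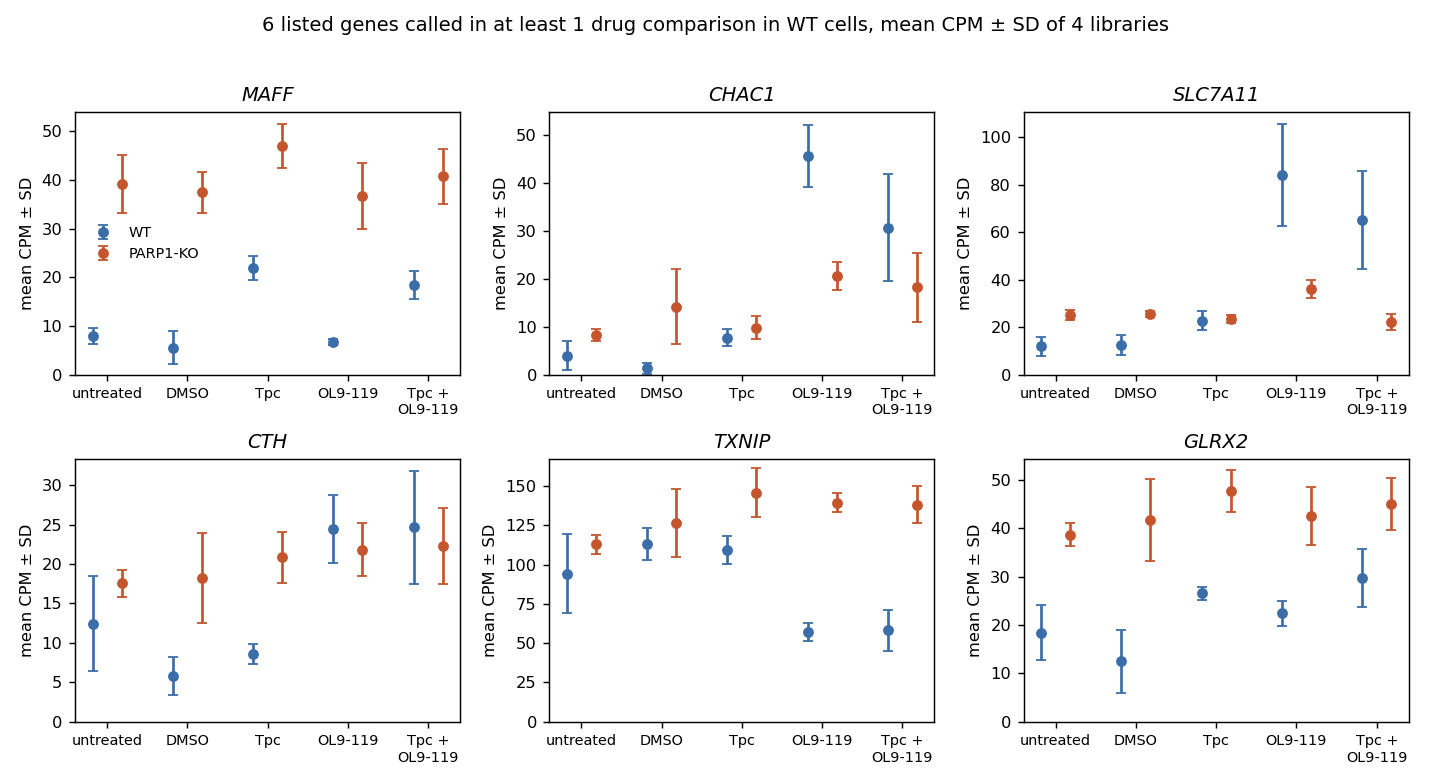
Mean CPM (y axis, linear) with the SD of 4 libraries for MAFF, CHAC1, SLC7A11, CTH, TXNIP and GLRX2 by treatment (x axis), WT in blue and PARP1-KO in orange. In WT cells CHAC1, SLC7A11 and CTH are high in the 2 conditions with OL9-119 and MAFF in the 2 conditions with Tpc, while the PARP1-KO means of SLC7A11 stay between 22.2 and 36.0 CPM.

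In PARP1-KO cells 0 of the 107 listed genes were called in the 6 treatment comparisons by edgeR or DESeq2, and from 1 to 5 had an unadjusted p below 0.05 by edgeR and 0 to 5 by DESeq2. Without the low-complexity libraries edgeR called 1 listed gene lower for the combination over OL9-119, beside 2 genes higher and 55 lower over all genes. SLC7A11 in PARP1-KO cells stood at 25.6 ± 1.12 CPM with DMSO and 36.0 ± 3.85 CPM with OL9-119, without overlap (0.49, adjusted p = 1 by edgeR), and CHAC1 at 14.2 ± 7.77 and 20.6 ± 2.83 CPM. Tested directly, the log2 response to OL9-119 was lower in PARP1-KO than in WT cells for CHAC1 (difference of log2 fold changes −4.44, SE 0.56, adjusted p = 4.28e-07), SLC7A11 (−2.28, SE 0.30, adjusted p = 9.69e-07) and SESN2 (−0.95, SE 0.18, adjusted p = 0.00233), and higher for TXNIP (1.13, SE 0.19, adjusted p = 0.000398), whose own response in PARP1-KO cells was 0.14 and not called. For Tpc it was lower for CHAC1 (−2.95, adjusted p = 0.00238) and MAFF (−1.66, adjusted p = 0.000822). For the combination it was lower for CHAC1 (−4.03, adjusted p = 1.5e-06), SLC7A11 (−2.60, adjusted p = 1.28e-08), CTH (−1.80, adjusted p = 0.00404) and MAFF (−1.64, adjusted p = 0.000564), and higher for TXNIP (1.08, adjusted p = 0.000387). CHAC1 with Tpc (−2.47, adjusted p = 0.0559) and CTH with the combination (−1.46, adjusted p = 0.0540) were not called without the low-complexity libraries.

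Most pairs of members were only weakly correlated from library to library. After the mean of each genotype was subtracted from log2 CPM, 16 of the 36 pairs of members had a Pearson correlation below 0 over the 40 libraries, and the median was 0.045. The highest were GCLC with GCLM (0.51), the 2 subunits of 1 enzyme, and HMOX1 with ME1 (0.44), and the lowest was NFE2L2 with SRXN1 (−0.47). HMOX1 and GCLC stood at −0.39. SRXN1 and OSGIN1, with 0 to 27 and 0 to 40 counts per library, took part in most of the pairs below 0. Such low counts limit what their correlations can show. The genes most like each member by this measure, out of about 10522 with a mean of at least 10 CPM, were VCL for TXNRD1 (0.90), ZNF367 for NFE2L2 (0.84), SLC30A9 for ME1 (0.77), VAMP7 for GCLC (0.75), MOB1B for GCLM (0.74), MYBBP1A for OSGIN1 (0.74), GNPDA1 for NQO1 (0.70), MAP2K4 for HMOX1 (0.69) and NEURL4 for SRXN1 (0.68). The libraries that these correlations run over share treatment groups and differ in depth and complexity, and none of the 9 nearest genes was itself a member.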

How the data were processed

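Poly(A) RNA of HEK293A cells was sequenced as directional paired-end libraries with 100 bp reads. The deposited values are raw gene counts per library, which the authors made with STAR 2.7.8 (GeneCounts) on hg38 with the Ensembl annotation; FastQC 0.11.9 and Picard 2.26.6 are also named in the submitters' processing notes. The strand setting of the counting is not given in the sources used here. All 40 libraries were grouped by their labels into 10 conditions of 4. Genes with a sum of at least 10 counts were kept, and 1 mean per condition was fitted with edgeR 4.0.16 (quasi-likelihood test, TMM normalisation, R 4.3.3), with Benjamini-Hochberg adjustment over all genes tested. Adjusted p below 0.01 was called. DESeq2 1.42.0, other filters, scalings and sets of libraries served as alternatives, and the script was tested on simulated data. CPM used TMM-scaled library sizes. Drug-treated cells were compared with DMSO-treated cells, and the 20 comparisons share libraries.

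The members and gene lists were chosen with earlier results of these data known. Of the lists, up to 3 genes in each direction were named per comparison, the called genes with a mean of at least 20 counts and the largest changes. Others named from the lists, among them CUL3, TXN, PRDX4, FTH1, IDH2, SOD1 and KEAP1, were chosen after their values were seen. SOD2 did not match a gene of the table by symbol. Replicates are called biological in the labels and technical in part of the methods, so p-values measure only the spread between these libraries. No 2 replicate libraries were identical. Totals per library limit the precision of low genes, and intervals from the fit cover the spread between libraries.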

Additional observations from a re-analysis of the deposited data

Results flagged for a closer look

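In 9 of the 90 groups of 4 libraries, one library stood apart from the other 3 by Dixon's criterion on the gap over the range, which chance gives in about 1 in 20 groups. HMOX1 in WT untreated replicate 3 stood at 46.2 CPM, with the others at 9.09 to 15.3 CPM. NFE2L2 in PARP1-KO untreated replicate 1 stood at 134.9 CPM, with the others at 97.96 to 100.96 CPM. WT OL9-119 replicate 2, a low-complexity library, was low for both NFE2L2 (61.7 CPM, others 79.3 to 82.8) and TXNRD1 (162 CPM, others 206 to 214). GCLC stood apart in PARP1-KO DMSO replicate 3 (121.3 CPM, others 80.1 to 87.0), in PARP1-KO replicate 3 with both agents (92.7 CPM, others 85.3 to 86.3) and in WT Tpc replicate 2, another low-complexity library (97.8 CPM, others 75.0 to 76.2). GCLM stood at 66.4 CPM in WT Tpc replicate 3 (others 57.0 to 57.8), and SRXN1 at 1.74 CPM in WT replicate 3 with both agents (others 0 to 0.275).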

How the results depend on the processing

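HMOX1 was called in all 5 comparisons of the genotypes under every alternative run, and no member was called in any treatment comparison or response difference under any of them. For untreated cells the members called fell from 2 to 1 without the low-complexity libraries (chosen after seeing the data) and in a fit of only the libraries compared (TXNRD1 0.47, adjusted p = 0.0183 by edgeR), ranged from 1 to 2 when 1 library was left out, and rose to 3 with length and GC offsets, where ME1 was called lower (−0.52, adjusted p = 0.00667). With DMSO they fell from 2 to 1 with length and GC offsets, without the low-complexity libraries and in a fit of only the libraries compared (NFE2L2 lost each time), ranged from 1 to 2, and rose to 3 at adjusted p below 0.05 (TXNRD1). With OL9-119 they ranged from 1 to 3 and stood at 2 with length and GC offsets (NFE2L2 lost). With both agents they rose from 1 to 2 at adjusted p below 0.05 and with length and GC offsets (TXNRD1 0.41). Without the low-complexity libraries the listed genes called lower became 13 with DMSO and 19 with both agents, and those called higher became 10 with Tpc and 12 with OL9-119. Over all genes the same counts went from 1662 to 1276, 1072 to 1726, 1207 to 2251 and 1429 to 2792. The causes were not tested. Leaving those libraries out leaves 1 WT DMSO library, assumed to vary like the other groups. Genes without a filter on low counts moved the median of all genes in untreated cells from 0.17 to 0.01.

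In 0 of 17 comparisons did every same-numbered pair of libraries correlate above 0.1. Correlations of such pairs ran from −0.13 to 0.33, so the check does not show that the libraries were unpaired. With the replicate block the members called stayed at 2, 2, 1, 3 and 1 in the comparisons of the genotypes and 0 elsewhere, and HMOX1 stood at 1.81, 2.41, 2.38, 1.79 and 2.23.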
